A study of Mus musculus with 6 samples.

Results

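Club cells are the secretory cells of the conducting airways, and 10 genes for their secreted proteins and oxidases were followed here in cells sorted from mouse lung tumours. The genes were Scgb1a1, Scgb3a1, Scgb3a2, Bpifa1, Reg3g, Cyp2f2, Cyp4b1, Fmo2, Clu and Muc1, and a probe set counted as theirs when the array annotation gave it exactly 1 of these symbols. That rule found 17 probe sets, and all 10 genes were among the 18193 measured. Fmo2 had 5 probe sets, Clu had 4 and the other genes had 1 each.

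In the mouse lung, club cells line the bronchioles, release secretoglobins and antimicrobial proteins into the airway fluid and carry cytochrome P450 and flavin monooxygenases that oxidise inhaled compounds. They can divide after injury and give rise to ciliated cells. Scgb1a1 is their classical marker, while Clu and Muc1 are also made by many other epithelia.

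The tumours came from Rb/p53/p130 triple knockout mice, a model of small cell lung cancer (SCLC) on a mixed C57BL/6;129Sv/J background, in which Cre recombinase was delivered by adenovirus. They were harvested 6 to 7 months after infection without further treatment, and the sources used here name neither the promoter that drove Cre nor the age of the mice. Cells stained for CD24, CD44 and EpCAM were sorted into a TPC fraction, for tumour-propagating cells, and a non-TPC fraction, and 1 array of each came from mice 1127, 920 and 0107. Both fractions came from the same engineered mice, and whether every sorted cell had been recombined by Cre was not tested. No array of normal lung or unsorted tumour was analysed here, and the labels do not say whether several tumours of a mouse were pooled. Values are RMA signals on a log2 scale, on which a difference of 1 is a 2-fold change, and differences are TPC minus non-TPC. RMA corrects the background, brings the arrays to a common distribution and joins the probes of each probe set into 1 value. A gene counted as changed at an adjusted p under 0.05 (limma, Benjamini-Hochberg over all genes). Array medians lay between 6.00 and 6.04. The cells carried neuroendocrine transcripts, which mark this cancer, with 9 of 10 neuroendocrine markers above the median gene level of 6.91 and a mean marker level of 9.79 to 10.12 in the TPC arrays and 9.64 to 9.89 in the non-TPC arrays.

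Airway secretory genes were lower in TPCs in a broad way, although no single gene passed the test on fraction alone. Of the 10 genes, 9 had a lower TPC signal in all 3 mice, a pattern found in 13.8% of all genes, and Muc1 was the exception. The mean difference was below -1 for 8 of the 10, against 2.74% of all genes, and in 5 of them, Bpifa1, Reg3g, Cyp4b1, Fmo2 and Clu, every TPC array lay below every non-TPC array, against 5.91% of all genes. The median difference was -1.38, beside 0.04 over all genes, and within mice 1127, 920 and 0107 the medians were -1.54, -1.89 and -1.01, beside 0.07, 0.05 and -0.03 over all genes. In the same mice 8, 8 and 5 of the 10 genes were lower by over 1, beside 4.23%, 2.87% and 4.27% of all genes. At an unadjusted p under 0.05, 6 of the 10 were lower and 0 higher, where 4.35% of all genes were lower.

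With fraction as the only term, 0 of the 10 genes passed, the smallest limma adjusted p being 0.0911 for Reg3g, and 0.0605% of all genes passed. When the mouse was a replicate block, which compares the fractions within each animal, Bpifa1 and Fmo2 passed (0.0715% of all genes did), and when it was a random block Reg3g, Cyp4b1 and Clu passed (0.214% of all genes did). The calls of the replicate block rested on the mice included. Without mouse 1127 neither passed (0% of all genes were called lower), without mouse 920 Bpifa1 passed but not Fmo2 (0.055% of all genes were called lower), and without mouse 0107 all except Scgb1a1 and Muc1 passed, 8 of the 10 (2.77% of all genes were called lower). At an unadjusted p under 0.05, 7, 7 and 9 of the 10 genes were lower without mice 1127, 920 and 0107, beside 3.69%, 4.69% and 9.6% of all genes. These fits on 2 mice have 1 residual degree of freedom. On fraction alone, Reg3g and Clu passed when the non-TPC array of mouse 0107 was left out (limma adjusted p = 0.0437 and 0.0252), where 0.462% of all genes were called lower. In bulk samples, fewer cells of a type and less RNA per cell cannot be told apart, which holds for every difference given here.

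**Figure D1:**
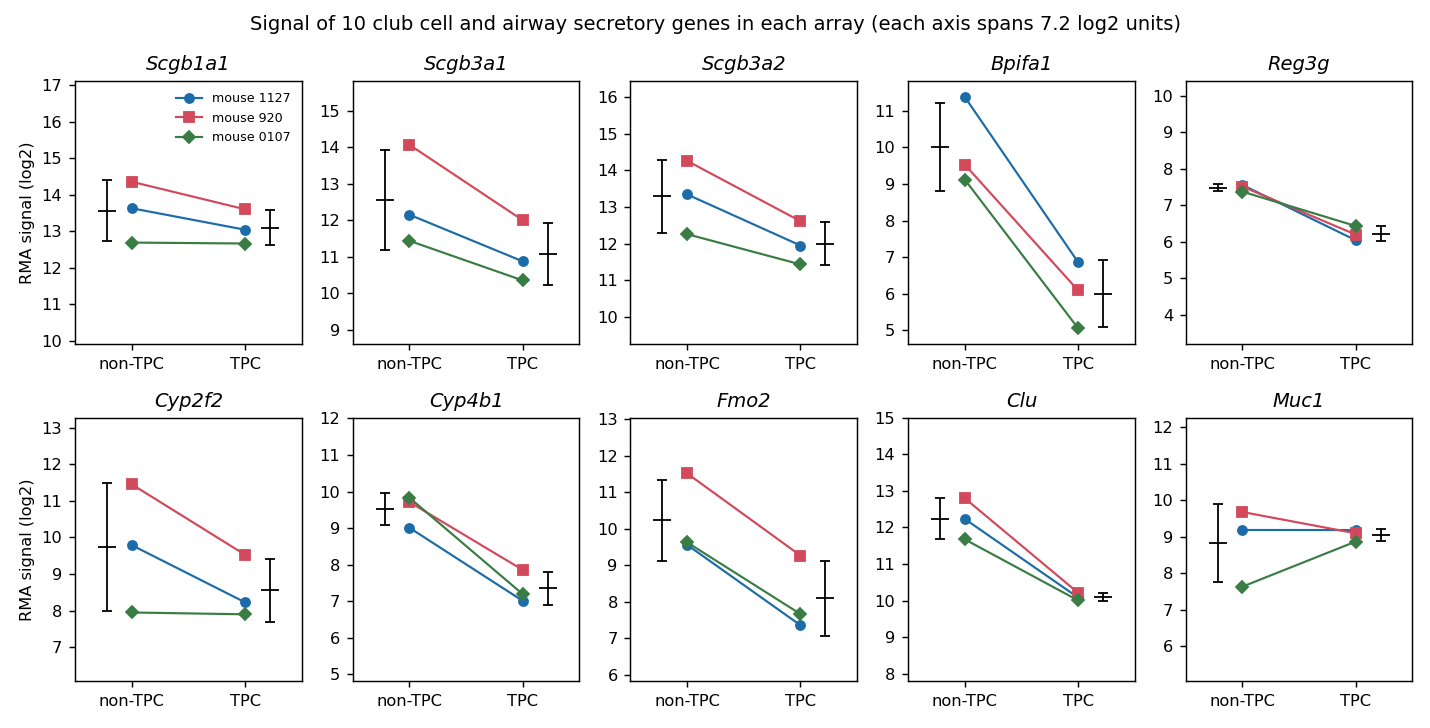
RMA signal (log2) of each gene in the non-TPC and TPC arrays. Coloured lines join the 2 arrays of a mouse, and black marks give the mean and SD of the 3 arrays of a fraction. Each axis spans the same number of log2 units but starts at a different level. Lines fall from non-TPC to TPC in all 3 mice for 9 genes, and the Muc1 line of mouse 0107 rises.

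The stretches just before the transcription start of 4 of these genes are shown, in 2 pairs. Bpifa1 and, by its brightest probe set, Fmo2 differed mainly or steadily between fractions. Scgb3a1 and Cyp2f2 had a larger sum of squares between mice than between fractions, although Scgb3a1 was lower in the TPCs of each mouse (-1.28, -2.06 and -1.08 in mice 1127, 920 and 0107). Each holds the 250 bases before a RefSeq start (build GRCm38.p6), 5′ to 3′ on the gene's strand. Fmo2 has 2 such starts, and the stretch shown lies before the upstream one. RefSeq promoters were used for 7 of the 10 genes. None was used for Scgb1a1, Scgb3a2 and Clu, which does not mean that RefSeq lists none. Capitals mark matches on either strand to the forkhead motifs TGTTTAC and TGTTTGC, the NKX2-1 type motifs CTCAAG and CACTTG, and the C/EBP type motif TTGCNNAA.
Bpifa1, chr2:154142630-154142879, plus strand: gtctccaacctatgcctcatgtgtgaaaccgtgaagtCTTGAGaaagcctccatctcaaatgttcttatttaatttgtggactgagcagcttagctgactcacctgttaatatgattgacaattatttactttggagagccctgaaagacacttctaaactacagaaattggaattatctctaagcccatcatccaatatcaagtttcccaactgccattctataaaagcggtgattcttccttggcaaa
Fmo2, chr1:162898759-162899008, minus strand: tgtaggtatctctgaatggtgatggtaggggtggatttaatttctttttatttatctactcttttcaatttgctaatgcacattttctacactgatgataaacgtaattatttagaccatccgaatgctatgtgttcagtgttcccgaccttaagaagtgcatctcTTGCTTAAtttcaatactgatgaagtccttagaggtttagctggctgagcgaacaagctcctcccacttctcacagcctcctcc
Scgb3a1, chr11:49663345-49663594, plus strand: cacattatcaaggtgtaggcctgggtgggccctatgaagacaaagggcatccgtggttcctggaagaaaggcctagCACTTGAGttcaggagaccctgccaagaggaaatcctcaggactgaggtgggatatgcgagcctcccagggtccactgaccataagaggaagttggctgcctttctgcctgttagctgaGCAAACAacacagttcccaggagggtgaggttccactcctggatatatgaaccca
Cyp2f2, chr7:27119705-27119954, plus strand: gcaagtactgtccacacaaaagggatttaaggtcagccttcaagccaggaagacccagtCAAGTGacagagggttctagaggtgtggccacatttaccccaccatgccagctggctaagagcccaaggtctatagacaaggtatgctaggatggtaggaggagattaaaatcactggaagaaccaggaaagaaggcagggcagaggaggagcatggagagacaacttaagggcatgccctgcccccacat
Bpifa1 held CTCAAG on the opposite strand 208 to 213 bases before the start, and Cyp2f2 held CACTTG on the opposite strand 186 to 191 bases before it. In Scgb3a1 both NKX2-1 type motifs matched in overlapping positions 167 to 174 bases before the start, and TGTTTGC matched on the opposite strand at 49 to 55 bases. Fmo2 held TTGCNNAA 77 to 84 bases before its upstream start. Before its downstream start, whose stretch is not shown, it held TTGCNNAA at 62 to 69 bases and TGTTTAC on the opposite strand at 22 to 28 bases. These short motifs are common. Of all 32851 RefSeq promoter windows of this length, 13.3% held CTCAAG, 11.6% CACTTG, 4.3% TGTTTGC, 3.17% TGTTTAC and 9.56% TTGCNNAA. A match describes letters and is no measured binding site.

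The secretoglobins, small secreted proteins of the airway lining, were bright in both fractions. Their sum of squares between mice was at least that between fractions, without division by degrees of freedom, of which mouse has more. Scgb1a1 (probe set 1452543_a_at), the club cell secretory protein, stood at 13.04, 13.60 and 12.67 in the TPCs of mice 1127, 920 and 0107 and at 13.63, 14.36 and 12.69 in their non-TPCs. The fractions overlapped, and in mouse 0107 the difference was only -0.03. The mean difference of Scgb1a1 was -0.46 (SE 0.44, 95% interval -1.52 to 0.61, limma adjusted p = 0.909), an interval that holds both a lower and a higher level. With single arrays left out it ranged from -0.89, without the non-TPC array of mouse 0107, to -0.06, without that of mouse 920. The highest signal of any probe set on any array was 14.81, so the non-TPC array of mouse 920 was close to the upper end of the scale, and any compression there was not tested.

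Scgb3a1 (1419699_at), a secretoglobin of the larger airways, was at 10.88, 12.00 and 10.36 in TPCs and at 12.15, 14.07 and 11.44 in non-TPCs of mice 1127, 920 and 0107. Every mouse had less in its TPCs, but the TPCs of mouse 920 lay above the non-TPCs of mouse 0107, so the fractions overlapped. The difference was -1.47 (SE 0.72, limma adjusted p = 0.823), and it was -0.72 when the non-TPC array of mouse 920 was left out. Scgb3a2 (1425218_a_at), which is made by club cells from early in lung development, had 11.95, 12.61 and 11.43 in TPCs against 13.34, 14.26 and 12.26 in non-TPCs. It too was lower in each mouse with overlapping fractions, with differences of -1.40, -1.65 and -0.83 in the same mice. Its difference of -1.29 had an SE of 0.53 (limma adjusted p = 0.769) and an SE of 0.20 with the replicate block (adjusted p = 0.149), and leaving out the non-TPCs of mouse 920 gave -0.80.

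The largest difference among the 10 genes belonged to Bpifa1 (1420347_at), a secreted protein of the BPI fold family that coats the upper airway and acts against bacteria. Its signal was 6.86, 6.09 and 5.05 in the TPCs of mice 1127, 920 and 0107 and 11.38, 9.53 and 9.12 in their non-TPCs. The fractions were far apart, with 2.26 log2 units between the highest TPC array and the lowest non-TPC array. The mean was 10.01 ± 1.2 in non-TPCs and 6.00 ± 0.91 in TPCs (SD, n = 3), a 16.1-fold difference (-4.01, SE 0.68, 95% interval -5.65 to -2.37). The limma adjusted p was 0.2 on fraction alone and 0.0286 with the replicate block, where the SE was 0.23. The TPC array of mouse 0107 lay near the first quartile of the arrays, 4.52 to 4.65, where signals are dim, so the fold is less certain than its direction.

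Reg3g (1448872_at), a secreted lectin that kills Gram-positive bacteria, varied little between mice. It was at 6.04, 6.20 and 6.44 in TPCs and at 7.56, 7.51 and 7.38 in non-TPCs of mice 1127, 920 and 0107. Of the 10 genes, 9 had a mean signal above the median gene level of 6.91, and Reg3g, at 6.85, did not. The 3 arrays of a fraction lay within 0.39 and 0.18 of each other and the fractions were separate. The difference of -1.26 (SE 0.15, 95% interval -1.61 to -0.90) gave a limma adjusted p of 0.0911, 0.0391 under the random block and 0.102 under the replicate block.

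Among the oxidases, Cyp4b1 and the brightest Fmo2 probe set differed in every mouse, with no value above -1.86, while Cyp2f2 hardly differed in mouse 0107. Cyp2f2 (1448792_a_at), the club cell cytochrome P450 that activates naphthalene, was at 8.22, 9.53 and 7.90 in TPCs and at 9.79, 11.45 and 7.95 in non-TPCs of mice 1127, 920 and 0107. The differences were -1.56 and -1.93 in mice 1127 and 920 and -0.05 in mouse 0107, where both fractions were low. The mean difference of -1.18 had an SE of 0.88 (limma adjusted p = 0.89), and it was -1.75 without mouse 0107 and -0.32 and -2.07 when the non-TPC arrays of mice 920 and 0107 were left out in turn.

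Cyp4b1 (1416194_at), a P450 of lung epithelium that oxidises fatty acids and some toxins, was at 7.01, 7.86 and 7.19 in TPCs and at 9.01, 9.71 and 9.83 in non-TPCs. The fractions were separate by 1.15 log2 units. Unlike Cyp2f2, it differed most in mouse 0107 (-2.64, against -2.0 and -1.86 in mice 1127 and 920). The mean difference of -2.17 (SE 0.30, 95% interval -2.89 to -1.44, a 4.49-fold difference) had a limma adjusted p of 0.119, and 0.0413 under the random block.

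Fmo2 (1422905_s_at), the main flavin monooxygenase of the lung, stood at 7.36, 9.26 and 7.66 in TPCs and at 9.56, 11.51 and 9.62 in non-TPCs of mice 1127, 920 and 0107. Mouse 920 was high in both fractions, and the fractions did not overlap, although its TPC array lay only 0.29 below the lowest non-TPC array. Within mice the difference of this probe set was nearly constant, at -2.20, -2.25 and -1.96. The SE of its mean difference, -2.14, therefore went from 0.69 on fraction alone (limma adjusted p = 0.626) to 0.14 with the replicate block (adjusted p = 0.0333). The other 4 Fmo2 probe sets were also lower in TPCs of every mouse, by -1.24, -2.35, -1.35 and -0.41 on average in order of brightness. The second brightest (1422904_at) was not steady, at -1.22, -2.09 and -0.40 in mice 1127, 920 and 0107, and its fractions overlapped. The dimmest, with a mean signal of 4.07, showed the smallest difference. In a fit over all probe sets with the replicate block, which called 0.02% of them, the third brightest Fmo2 probe set (1435459_at) passed (limma adjusted p = 0.0479). The brightest (0.0548) and the second brightest (0.428) did not.

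Clu encodes clusterin, a secreted chaperone of many epithelia that also rises in stressed cells. Its brightest probe set (1454849_x_at) was at 10.08, 10.21 and 10.005 in TPCs of mice 1127, 920 and 0107 and at 12.23, 12.80 and 11.68 in non-TPCs. The TPC arrays were within 0.21 of each other and all lay under the non-TPC arrays. The difference of -2.14 (SE 0.28, 95% interval -2.81 to -1.47, a 4.4-fold difference) had a limma adjusted p of 0.105, and 0.0391 under the random block. The other 3 Clu probe sets differed by -2.11, -2.04 and -2.33 and were lower in each mouse. The 3 brightest carry the _x_ suffix, by which the manufacturer marks probe sets that may bind similar sequences, and the dimmest does not.

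**Figure D2:**
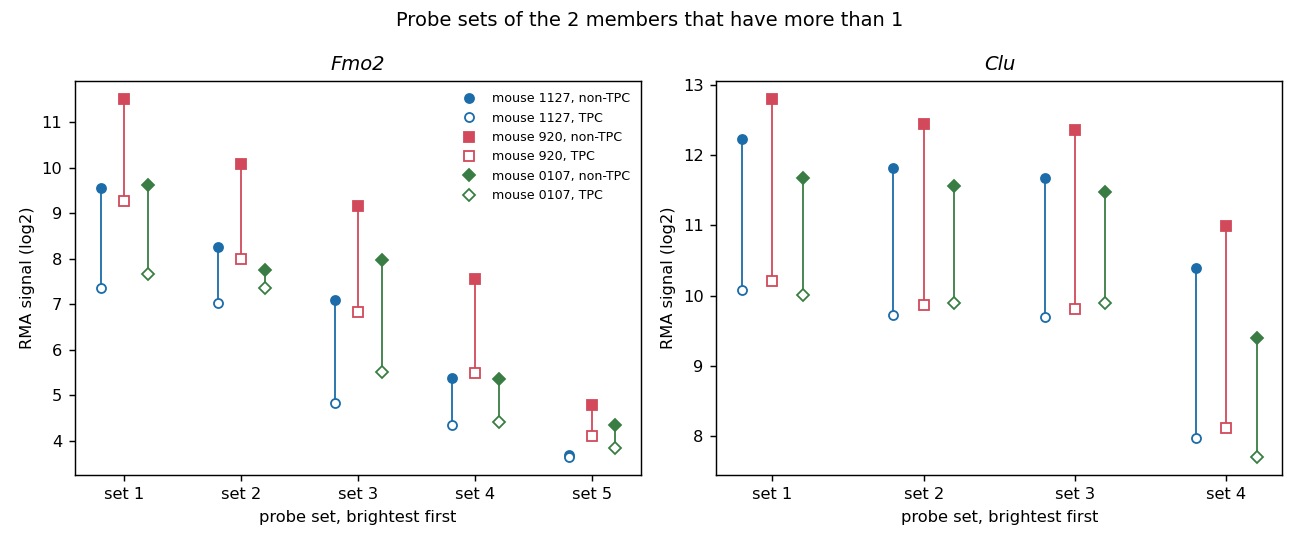
RMA signal (log2) of each Fmo2 and Clu probe set, brightest first. Filled symbols are non-TPC arrays, open symbols TPC arrays, and a line joins the arrays of a mouse. The open symbol is the lower of the pair in all 9 probe sets and all 3 mice, and the gap narrows in the dimmest Fmo2 probe set.

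Muc1 (1449199_at), a membrane mucin of the apical surface of epithelia, did not follow the others. It was at 9.18, 9.09 and 8.87 in TPCs and at 9.18, 9.67 and 7.63 in non-TPCs of mice 1127, 920 and 0107. The TPC arrays lay within 0.31 of each other, inside the range of the non-TPC arrays. The difference was 0.22 (SE 0.50, 95% interval -0.97 to 1.40, limma adjusted p = 0.958), made up of -0.001 in mouse 1127, -0.58 in mouse 920 and 1.23 in mouse 0107, and without mouse 0107 it was -0.29. The epithelial adhesion gene Epcam, whose protein was stained for the sort, was also low in the non-TPC array of mouse 0107, at 9.98 against 11.57 in the TPC array of that mouse, and its part in the Muc1 value was not tested.

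**Figure D3:**
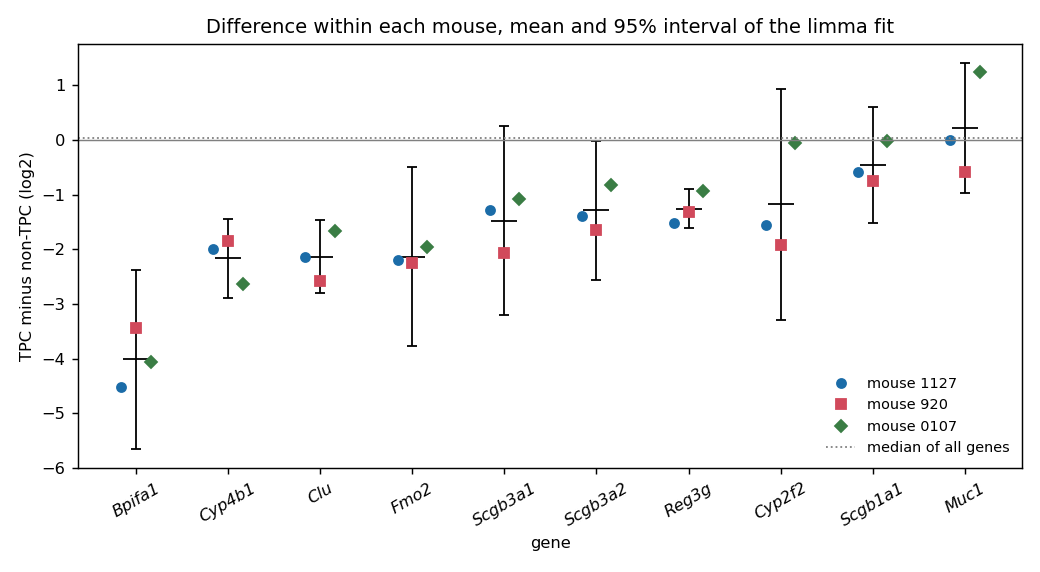
TPC minus non-TPC (log2) for each gene, ordered by the mean. Coloured points are the 3 mice, black marks the mean and 95% interval of the limma fit on fraction alone, and the dotted line the median of all genes at 0.04. Bpifa1 lies lowest with all mice at -3.44 or lower, and the intervals of Scgb1a1, Scgb3a1, Cyp2f2 and Muc1 reach above 0.

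The 10 genes fell along a range from fraction to mouse as the larger part of their sum of squares. For each gene the sum of squares over the 6 arrays was divided into a part for fraction, a part for mouse and a rest. These parts are not divided by their degrees of freedom, of which mouse has more than fraction. Fraction held 96.1% for Reg3g, 91.3% for Clu, 89.9% for Cyp4b1 and 84.2% for Bpifa1, against a median of 14.3% over all genes. It held 60.0% for Fmo2, 47.9% for Scgb3a2 and 39.0% for Scgb3a1. Mouse held most for Scgb1a1 (78.7%), Cyp2f2 (68.3%), Muc1 (61.1%) and Scgb3a1 (57.8%), and for Scgb3a2 (48.7%) its share was nearly that of fraction, against a median of 46.5% over all genes. The rest was 35.99% for Muc1 and at most 10.2% for each of the other genes, against a median of 26.2% over all genes.

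Mouse 920 had the highest signal of 7 of the 10 genes in TPCs and of 7 in non-TPCs, and mouse 0107 the lowest of 7 and 8. Scgb1a1, Scgb3a1, Scgb3a2, Cyp2f2 and Clu were ordered 920, 1127, 0107 in both fractions. Bpifa1, in contrast, was highest in mouse 1127 in both. With 1 array per mouse and fraction, differences between mice have no replicate of their own.

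**Figure D4:**
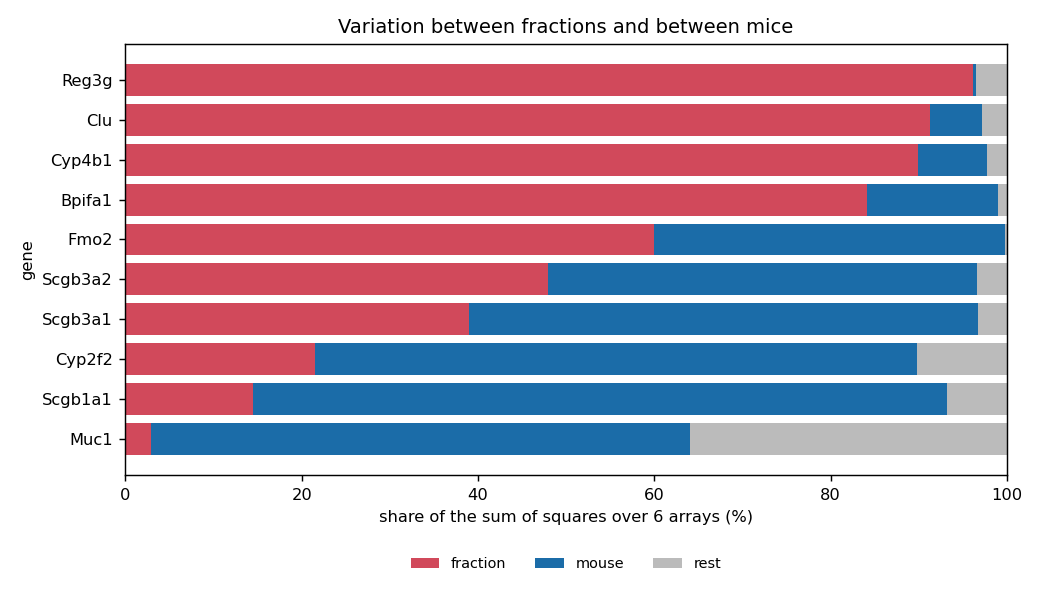
Share of each gene's sum of squares over the 6 arrays (%) that lies between fractions, between mice and in the rest. Genes are ordered by the share of fraction, from 96.1% for Reg3g at the top to 2.94% for Muc1 at the bottom.

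Across the 6 arrays, which share fraction and mouse as sources of likeness, Scgb1a1 and Cyp2f2 had a Pearson r of 0.99, and no other of the 9095 genes compared, all above the median level, followed Scgb1a1 as closely. The next were Upk3a, a uroplakin (0.98), Cyba, a subunit of the NADPH oxidase (0.98), Rere (0.98) and Clic1 (0.97). For Bpifa1 the closest were Igfbp7, a secreted IGF-binding protein (0.99), Meg3, a noncoding RNA (0.99), Stk38, a kinase (0.98), Ap1m1, an adaptor subunit (0.98), and Sparc, a matrix protein (0.98). Between Scgb1a1 and Bpifa1 themselves r was 0.46, and between Reg3g and Clu it was 0.95. With 6 arrays such values are a description.

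Other genes known from club cells leaned the same way by less. Of 17 measured, 15 had a lower mean in TPCs (41.9% of all genes did), 11 were lower in all 3 mice and 4 had separate fractions, 0 passed in limma on fraction alone or with either block (4 were lower at an unadjusted p under 0.05), and the median was -0.70. The glutathione transferase Mgst1 differed by -1.97 (limma adjusted p = 0.567), the carbonyl reductase Cbr2 by -1.88 (0.663), the glutathione transferase Gsta4 by -1.60 (0.706) and the P450 Cyp2b10 by -0.79 (0.574). The 2 with a higher mean in TPCs were Aldh1a7 (0.59, higher in all 3 mice) and Ces1d (0.04). In mice 1127, 920 and 0107 the list medians were -0.59, -1.42 and -0.18.

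Secreted defence proteins of the airway other than the 10 genes were lower in TPCs for 12 of 13 by mean and for 10 of 13 in all 3 mice, with a median of -1.21 and 0 past the limma test on fraction alone or with either block (6 were lower at an unadjusted p under 0.05). Lcn2, an iron-siderophore binding protein, differed by -2.87 (limma adjusted p = 0.427), Ltf, lactoferrin, by -2.12 (0.537), the collectin Sftpd by -2.15 (0.631) and the chemokine Cxcl17 by -1.21 (0.694). Lcn2 and Ltf are also neutrophil granule genes and Sftpd is also made by alveolar type 2 cells.

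Mucins and goblet cell genes showed no such lean. Their 13 members had a median of 0.00, 6 lower and 7 higher by mean, with 0 past the limma test and 0 at an unadjusted p under 0.05, and 3 lay above the median gene level. Muc4 differed by -0.43 (limma adjusted p = 0.807), Muc16 by -0.37 (0.861), Muc5ac by 0.26 (0.873) and Foxa3, a forkhead factor of goblet cells, by -0.29 (0.887).

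Of 20 measured paralogs of the 10 genes, 15 had a higher mean in TPCs and 5 a lower one, the median was 0.12 and 3 lay above the median gene level, so most were dim. In limma 0 passed, and 1, Fmo1, was lower at an unadjusted p under 0.05. Fmo1, Cyp4f16 (-0.17) and Reg1 (-0.12) were lower in all 3 mice, as were 13.8% of all genes. More of the 20, 11, were higher in all 3 mice, beside 3589 of all 18193 genes. In 5 of the 20 every TPC array lay above every non-TPC array, beside 1221 of all genes, and in 1, Fmo1, every TPC array lay below. Fmo1, another flavin monooxygenase, differed by -2.85 (SE 0.48, limma adjusted p = 0.2, and 0.145 with the replicate block), with differences of -1.99, -2.42 and -4.13 in mice 1127, 920 and 0107. Bpifb2 differed by 0.36 (limma adjusted p = 0.784), Fmo5 by 0.25 (0.866) and Cyp4v3 by -0.65 (0.873).

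Transcription factors and receptors that act in airway secretory cells were mostly bright in both fractions, with 10 of 13 above the median gene level. In limma 0 passed the test, and 1, Sox2, was higher at an unadjusted p under 0.05. Their median was 0.26, with 8 higher and 5 lower by mean. Sox2, a factor of the proximal airway, differed by 0.31 (limma adjusted p = 0.751), the receptor Notch2 by -0.84 (0.773), its target Hes1 by -0.59 (0.836) and Foxa1 by 0.56 (0.872). The list medians were 0.03, -0.16 and 0.49 in mice 1127, 920 and 0107. The probe set chosen for Nkx2-1, a lung lineage factor, was dim at 5.56 in both fractions.

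Markers of several other cell types moved in the same direction as the airway secretory genes, and their part in these differences was not tested. Alveolar type 2 markers were lower by mean in 9 of 9 (median -0.99), and their mean level was 7.23 to 7.46 in TPC arrays and 8.36 to 8.92 in non-TPC arrays. Of these, 2 fell on fraction alone, the surfactant genes Sftpa1 (-3.41, limma adjusted p = 0.00374) and Sftpc (-2.20, 0.0238), and the secreted chemokine Cxcl15 differed by -2.73 (0.285). With the replicate block Sftpa1 passed (limma adjusted p = 0.0286) and Sftpc did not (0.051). Alveolar type 1 markers were lower in 7 of 9 (median -1.34, mean level 6.72 to 6.86 against 7.72 to 8.36), with Cav1 at -3.48, Clic5 at -2.33 and Pdpn at -1.34, 0 past the limma test on fraction alone and 4 lower at an unadjusted p under 0.05. Under the random block Cav1 passed (limma adjusted p = 0.0373), and under the replicate block it did not (0.0964).

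Outside the epithelium, leukocyte markers were lower by mean in 6 of 8 (median -1.29, mean level 6.80 to 7.50 in TPC arrays against 7.55 to 8.50), fibroblast markers in 7 of 7 (-2.0, 5.59 to 5.80 against 7.08 to 9.53), endothelial markers in 7 of 7 (-0.91, 5.10 to 5.15 against 5.23 to 6.88) and mesothelial markers in 6 of 6 (-0.71, 4.66 to 4.92 against 5.95 to 6.11). The leukocyte genes Lcp1, Tyrobp and Ptprc differed by -2.20, -1.38 and -2.08, and Lcp1 passed with the replicate block (limma adjusted p = 0.0333) and the random block (0.0467) but not on fraction alone (0.169). Coro1a (0.43, higher in all 3 mice) and Laptm5 (0.02) were the 2 leukocyte genes with a higher mean in TPCs. The differences were, for the matrix genes Lum, Col3a1 and Col6a3, -3.07, -4.79 and -1.38, and for the endothelial genes Kdr, Cldn5 and Cdh5, -0.91, -2.13 and -1.21. Of the mesothelial genes, 0 of 6 lay above the median gene level. Gpm6a fell by 4.95 (limma adjusted p = 0.0338), by far the largest difference of the 6, and weighs heavily on their mean level. Wt1 and Msln differed by -0.84 and -0.90. RMA signals have no zero, so absence of a marker cannot be read from them.

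The remaining airway and tumour lists stayed near the centre by their medians. Ciliated cell markers were lower by mean in 6 of 9 (median -0.20, mean level 6.22 to 6.36 in TPC arrays against 6.27 to 6.76), with Rsph1 at 0.76, Tppp3 at -0.95 and Fam183b at -0.56. The ciliated medians were -0.53, -0.10 and 0.16 in mice 1127, 920 and 0107, so the mice did not share a direction. Basal cell markers had a median of 0.05 with 0 of 6 above the median gene level, Trp63 at 0.09, Krt5 at 0.08 and Ngfr at -0.07. Neuroendocrine markers had a median of 0.05, with 6 of 10 higher by mean and 4 lower. Insm1 was at 0.75, Chga at 0.83 and Syp at 0.38, and the 4 lower ones were Resp18 at -0.26, Scg2 at -0.14, Scg3 at -0.11 and Ncam1 at -0.01. In these 3 lists 0 genes passed the limma test. At an unadjusted p under 0.05, Tppp3 was lower and Rsph1 higher.

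**Figure D5:**
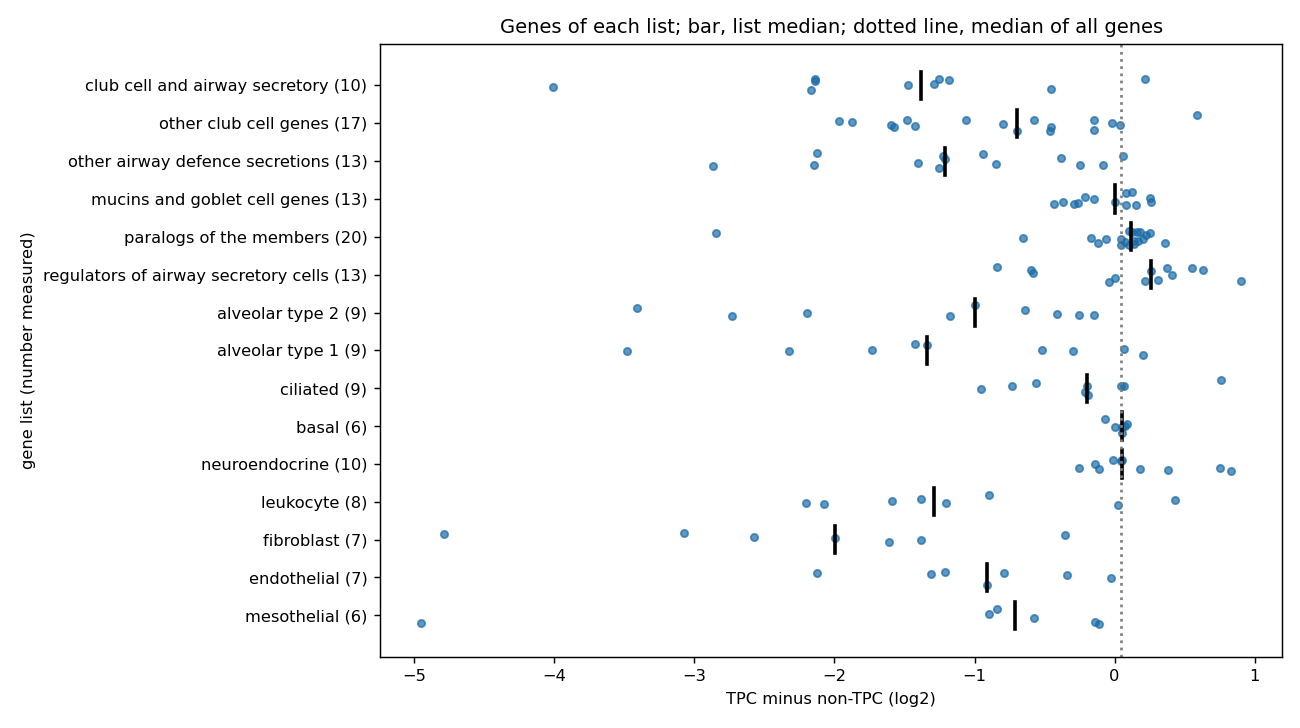
TPC minus non-TPC (log2) of every measured gene in each list, 1 point per gene, with the list median as a black bar and the median of all genes (0.04) as a dotted line. The points of the airway secretory genes, the other club cell and defence genes and the alveolar, leukocyte and stromal markers lie mostly left of the line, and those of the mucin, paralog, basal and neuroendocrine lists gather around it.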

How the data were processed

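Expression was measured on 6 biotin-labelled 1-colour Affymetrix arrays, 3 per fraction. The authors deposited log2 signals, 1 per probe set, and the submitters' processing notes name RMA as the method. No source used here gives the RMA version or log base, and the range of 2.70 to 14.81 was taken to show a log2 scale. Arrays have no read depth, and their number limits the precision. Of 45101 probe sets, 64 were controls, 34945 had 1 gene symbol, 932 several and 9160 no listed gene. Symbols were updated by Entrez identifier to RefSeq (GRCm38.p6) for 18032 of 18193 genes, each represented by its brightest probe set.

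The comparison used R 4.3.3 and limma 3.58.1, with two-sided moderated tests (eBayes), Benjamini-Hochberg adjustment and a threshold of 0.05. Each mouse gave both fractions, so the mouse numbers pair the arrays. Deviations from the fraction means correlated at 0.30, 0.46 and 0.36 within mice 1127, 920 and 0107, and at most at -0.08 between mice. The deviations of a gene cancel over the 3 arrays of a fraction, so positive values within mice force negative ones between mice on average. The replicate block leaves 2 residual degrees of freedom against 4. The p-values on fraction alone rest on the spread of the 3 arrays within each fraction. Those of the replicate block rest on the spread of the differences within 3 mice. Both spreads are moderated toward those of all genes. The fit on fraction alone was run on simulated arrays with independent noise and no mouse effect, so the block fits were not tested in this way.

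The 10 genes and the 14 other lists (157 of 173 symbols matched over all lists) were chosen with earlier results of these data known. From each list, up to 4 genes (3 for cell type markers) with the smallest unadjusted p are named. Epcam, Nkx2-1, Aldh1a7, Ces1d, Coro1a, Laptm5, Cyp4f16, Reg1, Resp18, Scg2, Scg3, Ncam1 and the 4 genes whose promoters are shown were chosen after their values were seen. The replicate block without each mouse was added after seeing the data.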

Additional observations from a re-analysis of the deposited data

How the results depend on the processing

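Under 20 alternative settings, 196 of 199 differences of the 10 genes kept their direction, but many of these could not change. Both block fits, and settings that alter only the variance or the genes tested, return the difference of the main fit. The replicate block without a mouse returns the difference of the fraction fit without that mouse. The 3 reversed differences were Muc1 without mouse 0107 (-0.29, also with the replicate block) and without its non-TPC array (-0.38). Leaving out other mice or arrays gave Muc1 differences of up to 0.64. Of the 10 genes, 0 passed on fraction alone, 2 with the mouse as a replicate block, 3 with the mouse as a random block, 0 to 2 without single mice or arrays and 0 to 8 with the replicate block without a mouse, the 8 being without mouse 0107. The median difference was -2.02 with the non-TPC array of mouse 0107 left out, where Reg3g and Clu passed beside 84 of all genes (0.462%), and otherwise between -1.80 and -1.02. Over all genes, 11 passed on fraction alone, 13 with the replicate block, 39 with the random block, 4 with the mean of all probe sets of a gene, 0 to 84 without single mice or arrays and 0 to 527 with the replicate block without a mouse. A fit without a mouse has fewer arrays, and a fit without 1 array mixes mouse with fraction. Dim signal limits the fold changes of Bpifa1 in TPCs and of the dimmest Fmo2 probe set.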
